A study of Homo sapiens with 3 samples.

Results

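Among the genes that build or break down the extracellular matrix, 5 were followed across MDA-MB-231 cells given vehicle, CFX or Mt-CFX: the matrix glycoproteins THBS1, FN1 and TNC, and the turnover genes CEMIP and TIMP3. With Mt-CFX, THBS1, FN1, CEMIP and TIMP3 were lower than in the vehicle control, by 1.65-fold for FN1 up to 3.78-fold for CEMIP, while TNC was 1.23-fold higher. With CFX all 5 were lower than in the control, within a narrow band of log2 differences from −0.21 for THBS1 to −0.35 for TNC. TNC was thus the one of the 5 that stood on opposite sides of the control with the compounds. The genes were chosen by name, as all probe sets that the platform annotation gives to them, which makes 6 probe sets of 5 genes out of 14884 named genes. They were picked with the differences between these same arrays known, so those differences are a description and support nothing by themselves.

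The cells were MDA-MB-231, an established line of triple-negative breast cancer with a mesenchymal, invasive character. The 3 groups were cells with 1% DMSO as the vehicle control, cells with 10 µM CFX and cells with 10 µM Mt-CFX, each kept for 72 h and each measured on 1 whole-transcript array. The series title speaks of ciprofloxacin, a fluoroquinolone antibiotic, and no more than the code name is given for Mt-CFX. A DMSO content is stated for the control alone, so what the compounds did and what DMSO did cannot be told apart in a difference from the control. With 1 array per group no value has a replicate error, no difference could be tested and no p-value is given. Values are log2 expression values made with RMA, a method that gives all arrays nearly the same distribution, and a log2 difference of 1 is a 2-fold difference. As the cultures were measured in bulk, fewer cells that express a gene and less RNA per cell cannot be told apart.

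Genes were compared when the highest of their 3 values reached 3.89 log2, the median of all probe sets, called the floor below. This left 8868 protein-coding genes, and all 5 matrix genes were among them. Between 52.9% and 59.2% of these genes had exactly the same value on both arrays of a comparison, so that the median difference over all genes was 0 each time. Of 8 markers of the line 6 had a named probe set, and all 6 lay above the floor, among them VIM at 9.17 on every array at the probe set used. Its other probe sets were at 7.56, 7.68 and 7.79 and at 7.79, 7.72 and 7.80 in the control, with CFX and with Mt-CFX. A tie at a probe set thus need not hold at another of the same gene. Ties below are ties of deposited values and do not show that expression was equal. Of 18 markers of fibroblasts, endothelial cells and leukocytes 7 had a named probe set and 6 of those stayed below the floor, with the fibroblast gene DCN at 1.90 on every array. CD68, a lysosomal gene that is not confined to leukocytes, was the one above it, at 9.37 in the control, 9.27 with CFX and 9.13 with Mt-CFX. Its part in the differences below was not tested. Of the genes expected to be low in the line, the progesterone receptor gene PGR lay below the floor at 2.39 throughout, and the oestrogen receptor gene ESR1 lay at 3.81, 3.92 and 3.81, so that its CFX value just passed it. The epithelial and luminal genes EPCAM, GATA3 and CLDN4 went against that expectation and lay above the floor, at 5.37, 5.52 and 5.28 in the control.

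The extracellular matrix is the network of secreted proteins and polysaccharides to which cells attach. Fibronectin is assembled into fibrils through integrins on the cell surface and carries other matrix proteins. Thrombospondin 1 and tenascin C are matricellular proteins, which act more as modulators of adhesion and growth factor signals than as structural parts, and all of these glycoproteins are known targets of TGF-beta. Turnover is set by enzymes and their inhibitors. CEMIP is needed for the breakdown of hyaluronan, the long polysaccharide made by the HAS enzymes, and TIMP3 inhibits metalloproteinases of the MMP, ADAM and ADAMTS families and, unlike the other TIMPs, is held in the matrix. Fibronectin, tenascin C and CEMIP have been studied in breast cancer for their ties to migration and spread.

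To show the DNA next to which each gene starts, the 250 bases before the annotated start follow, from the RefSeq promoter table for GRCh38.p14, which held all 5 genes. They are written 5′ to 3′ on the strand of the gene, and capitals mark any match to the 9 motifs searched.
THBS1, chr15:39580829-39581078, plus strand: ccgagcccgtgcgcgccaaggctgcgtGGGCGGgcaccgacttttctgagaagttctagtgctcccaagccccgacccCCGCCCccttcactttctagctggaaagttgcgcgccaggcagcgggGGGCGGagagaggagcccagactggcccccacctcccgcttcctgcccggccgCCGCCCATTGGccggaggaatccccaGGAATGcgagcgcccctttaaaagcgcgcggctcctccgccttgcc
FN1, chr2:215436069-215436318, minus strand: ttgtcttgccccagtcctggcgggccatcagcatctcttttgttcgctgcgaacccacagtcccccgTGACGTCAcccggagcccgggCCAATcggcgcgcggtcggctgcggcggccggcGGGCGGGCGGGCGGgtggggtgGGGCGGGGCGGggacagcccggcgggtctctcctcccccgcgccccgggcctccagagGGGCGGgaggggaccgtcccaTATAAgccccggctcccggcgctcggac
TNC, chr9:115118158-115118407, minus strand: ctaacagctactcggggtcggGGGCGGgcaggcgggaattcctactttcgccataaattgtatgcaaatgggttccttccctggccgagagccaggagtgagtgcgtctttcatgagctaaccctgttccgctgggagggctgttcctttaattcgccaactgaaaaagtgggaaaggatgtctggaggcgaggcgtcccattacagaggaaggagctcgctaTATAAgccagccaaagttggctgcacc
CEMIP, chr15:80779120-80779369, plus strand: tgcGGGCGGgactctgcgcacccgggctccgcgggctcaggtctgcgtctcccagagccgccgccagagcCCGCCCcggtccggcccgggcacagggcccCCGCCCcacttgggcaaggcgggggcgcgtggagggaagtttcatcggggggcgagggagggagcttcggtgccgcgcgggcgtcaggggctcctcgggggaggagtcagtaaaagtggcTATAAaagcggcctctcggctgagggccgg
TIMP3, chr22:32801455-32801704, plus strand: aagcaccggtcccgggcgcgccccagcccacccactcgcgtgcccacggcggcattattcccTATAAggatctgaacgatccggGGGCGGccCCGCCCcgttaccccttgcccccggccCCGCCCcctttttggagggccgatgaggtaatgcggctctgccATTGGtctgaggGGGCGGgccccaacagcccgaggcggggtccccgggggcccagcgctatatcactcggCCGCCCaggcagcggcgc
The motifs, each searched on both strands, were the GC box GGGCGG, the CCAAT box CCAAT, the TATA box core TATAA, the cyclic AMP response element TGACGTCA, the AP-1 motif TGANTCA, the TEAD motif GGAATG, the SMAD palindrome GTCTAGAC, the composite motif of CHOP and ATF4 TGATGNAAT and the E2F motif TTTCGCGC. None of these motifs contains another, although neighbouring matches can share bases, as in the run of GC boxes of FN1. A match is a match of letters in this window and describes no binding.

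**Figure D1:**
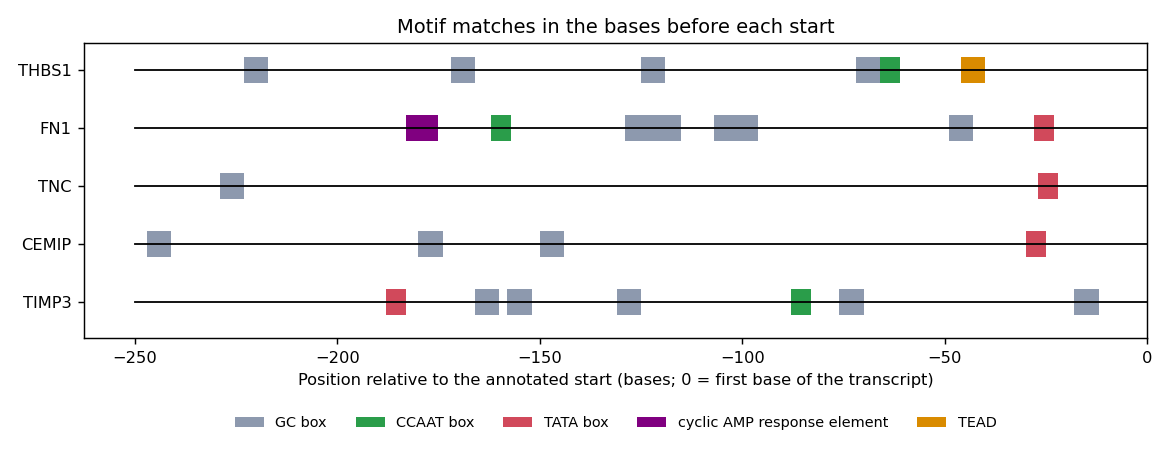
Matches to the motifs in the 250 bases before the annotated start of each gene, with the position in bases on the horizontal axis and 1 line per gene; coloured boxes mark the motif named in the legend. GC boxes are seen in all 5 windows, and FN1, TNC and CEMIP have a TATA box match within 30 bases of the start.

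A GC box was found before all 5 genes, a motif that 42.3% of 27305 promoters of this length hold. FN1 had 6 such matches, TIMP3 had 5, THBS1 had 4, CEMIP had 3 and TNC had 1. TATAA was present before 4 of the 5, against 19.6% of all promoters. In FN1, TNC and CEMIP it began 28, 27 and 30 bases before the start, whereas the match of TIMP3 began 188 bases before it. FN1 alone of the 5 held the cyclic AMP response element, which 1.77% of all promoters hold and which began 183 bases before its start. THBS1 alone of the 5 held the TEAD motif, present in 11.9% of all promoters. The AP-1, SMAD, CHOP and ATF4, and E2F motifs had no match before any of the 5, and 6.60%, 0.176%, 0.916% and 0.469% of all promoters hold them. The window of TNC was the poorest in G and C, at 54.8%, and the others lay between 69.6% for THBS1 and 76.4% for FN1, with a median of 58.0% over all promoters.

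**Figure D2:**
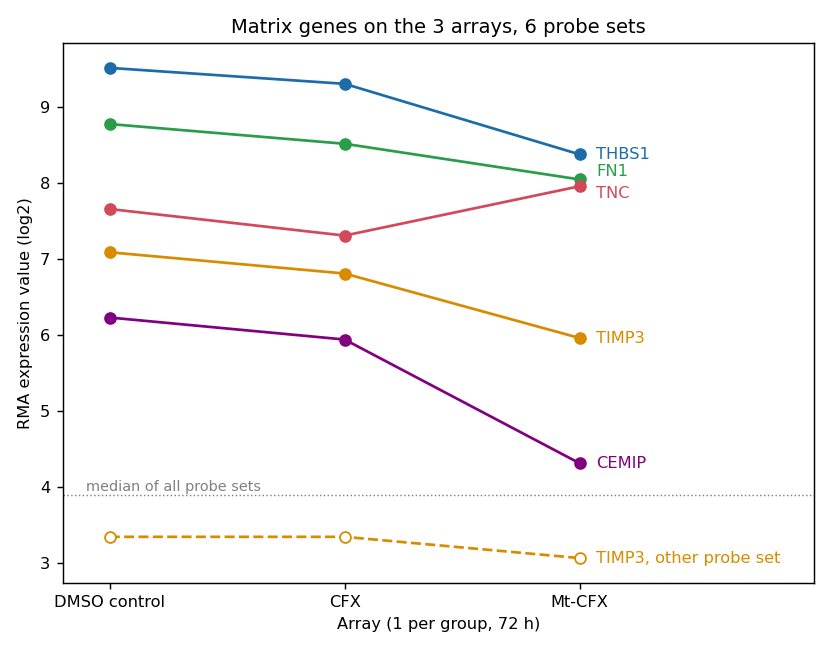
Log2 expression values (vertical axis) of the 6 probe sets on the DMSO control, CFX and Mt-CFX arrays, 1 array per group; solid lines are the probe sets used, the dashed line is the other probe set of TIMP3, and the dotted line is the median of all probe sets. Lines join the arrays for the eye only. THBS1, FN1, CEMIP and TIMP3 go down from control to CFX to Mt-CFX, and TNC goes from 7.66 to 7.31 and then to 7.96.

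THBS1, the gene of thrombospondin 1, stood at 9.52 log2 in the control, 9.31 with CFX and 8.38 with Mt-CFX. The highest value was thus that of the control and the lowest that of Mt-CFX, with CFX much nearer to the control. The log2 difference was −0.21 for CFX over control and −1.14 for Mt-CFX over control, and Mt-CFX left 45.3% of the control level. Between the compounds the difference was −0.93, or 1.90-fold lower with Mt-CFX, which falls short of 2-fold. THBS1 ranked 182nd from the lowest of 8868 genes with CFX and 15th from the lowest with Mt-CFX.

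FN1, the gene of fibronectin, stood at 8.78 in the control, 8.52 with CFX and 8.05 with Mt-CFX. The order of the arrays was the same as for THBS1, but the steps were more even. The log2 difference from the control was −0.26 with CFX and −0.72 with Mt-CFX, which is 83.5% and 60.5% of the control level. Mt-CFX over CFX gave −0.46, so FN1 was the one of the 4 lower genes whose difference between the compounds stayed under 1.5-fold. It ranked 116th from the lowest with CFX, 57th with Mt-CFX and 164th between the compounds.

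TNC, the gene of tenascin C, stood at 7.66 in the control, 7.31 with CFX and 7.96 with Mt-CFX. Here the CFX array was the lowest and the Mt-CFX array the highest. With CFX the log2 difference was −0.35, the widest of the 5 genes, at rank 56 from the lowest. With Mt-CFX it was 0.30, at rank 449 from the highest, and 5.06% of all genes compared were at least as high. At equal dose and time, Mt-CFX gave 1.57 times the level of TNC with CFX, a log2 difference of 0.65 at rank 81 from the highest.

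CEMIP, the gene of the hyaluronan-binding protein that starts hyaluronan breakdown, stood at 6.23 in the control, 5.94 with CFX and 4.31 with Mt-CFX. The Mt-CFX array was far below the other two, yet still above the floor of 3.89. CEMIP had a log2 difference of −0.29 with CFX, like FN1 and TIMP3. With Mt-CFX it was at −1.92, or 26.5% of the control level, the second lowest of all genes compared. Between the compounds the difference was −1.63, or 3.09-fold lower with Mt-CFX, the third lowest. Because the Mt-CFX value lay close to the floor, the size of these last differences is uncertain, as array values flatten near background.

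TIMP3 was read by a pair of probe sets that did not give the same sizes. At the probe set used, the one with the higher mean, it stood at 7.09 in the control, 6.81 with CFX and 5.96 with Mt-CFX. Its order was that of THBS1, FN1 and CEMIP, with log2 differences of −0.28, −1.13 and, between the compounds, −0.85. Mt-CFX left 45.6% of the control level, at rank 17 from the lowest. The other probe set stood at 3.34 in the control, 3.34 with CFX and 3.06 with Mt-CFX. It lay below the floor on all 3 arrays, was exactly equal between control and CFX, and differed by −0.27 with Mt-CFX. Both probe sets were therefore lowest with Mt-CFX, while only the brighter one differed with CFX.

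Genes that overlap the 5 in the RefSeq table were looked at for the same pattern. TIMP3 lies inside SYN3, the gene of a synapsin, which was at 3.36 on every array. ATIC, an enzyme of purine synthesis whose gene overlaps FN1 on the opposite strand, was at 8.53 in the control, 8.63 with CFX and 8.48 with Mt-CFX. MESD, a chaperone of LRP receptors whose gene overlaps CEMIP on the opposite strand, was at 5.71, 5.71 and 5.59. FSIP1, which overlaps THBS1 on the opposite strand, was at 3.59 on every array, and the microRNA gene MIR549A, which overlaps CEMIP, was below the floor at 1.48, 1.36 and 1.36. Among these overlapping genes the widest difference was −0.15 log2, that of ATIC between the compounds. Overlapping genes without a named probe set were not analysed here. These were all those of TNC and some of THBS1, FN1, CEMIP and TIMP3.

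**Figure D3:**
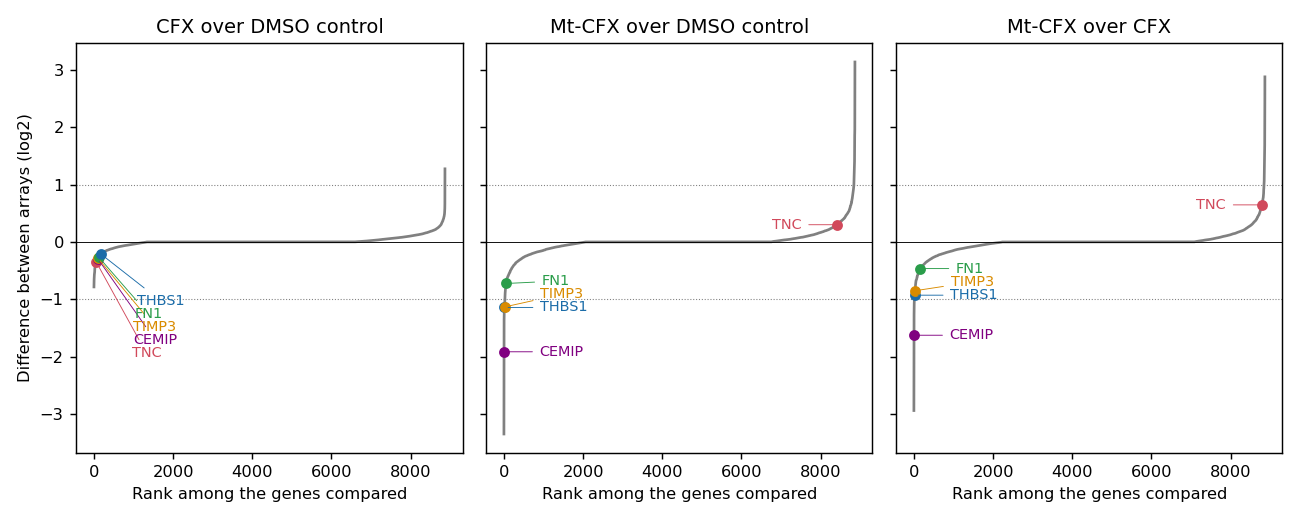
Log2 differences of the 8868 genes compared, sorted from lowest to highest (grey line), in each comparison; the vertical axis is the difference between a pair of arrays, dotted lines mark 2-fold, and coloured points are the 5 matrix genes. All 5 sit at the low end with CFX, and TNC moves to the high side with Mt-CFX while the others stay at the low end.

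With CFX, 0 of the 5 genes reached 2-fold or 1.5-fold, sizes reached in the lower direction by 0.00% and 0.101% of all genes compared. All 5 were lower by some amount, against 15.0% of all genes. Their range was 0.13 log2, from −0.35 to −0.21, with a median of −0.28. With Mt-CFX, THBS1, CEMIP and TIMP3 were at least 2-fold lower, against 0.259% of all genes, and with FN1 they make 4 of 5 at least 1.5-fold lower, against 1.25%. TNC was higher by some amount, as were 23.9% of all genes, while 23.2% were lower. The range over the 5 widened to 2.22 log2 and the median was −1.13. Between the compounds CEMIP alone of the 5 was at least 2-fold lower with Mt-CFX, against 0.124% of all genes. At 1.5-fold, THBS1, CEMIP and TIMP3 were lower, against 1.03%, and TNC was higher, against 1.13%. Since the genes were chosen with these contrasts known, nothing is read from these shares. The comparisons with the control share 1 control array, so that an error of that array would shift both in the same way.

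The single pair of compounds in the study was thus matched in dose and time, and the values differed in each of the 5 genes. The Mt-CFX array had the lower value of CEMIP, THBS1, TIMP3 and FN1 and the higher value of TNC. No interval of these differences can be given with 1 array per compound, so neither a difference nor a likeness of the compounds was shown beyond these arrays.

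Around the 5 genes, 10 lists of matrix genes and of the pathways that act on them were read, with the 5 themselves left out. They hold 242 genes, of which 109 were measured above the floor, 43 lay below it and 90 were not analysed here, among them the fibronectin receptor genes ITGA5, ITGB1, ITGAV and ITGB3, the plasminogen system genes PLAU and PLAUR, CCN1, TGFB1 and TGFB2. With CFX 0 of the 109 differed by 1.5-fold in either direction, a size reached by 0.147% of all genes. With Mt-CFX 5 were at least 1.5-fold lower, which is 4.59% against 1.25% of all genes, and 2 were at least 1.5-fold higher, which is 1.83% against 1.45%. Between the compounds 3 were lower, 2.75% against 1.03%, and 1 was higher, 0.917% against 1.13%. The median over the 109 was 0 in every comparison, which the ties fix: with Mt-CFX 50 were equal to the control, 44 lower and 15 higher. Lower by any amount were thus 40.4% of them against 23.2% of all genes, and higher 13.8% against 23.9%. Centring each array on its median added the same small amount to every difference of Mt-CFX from the control, so all ties became higher. The shares lower were then 34.9% against 20.8%. Counts after centring, here and below, therefore say nothing new of the tied genes. The lists were drawn up with earlier results of these data known, and the shares are descriptions.

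**Figure D4:**
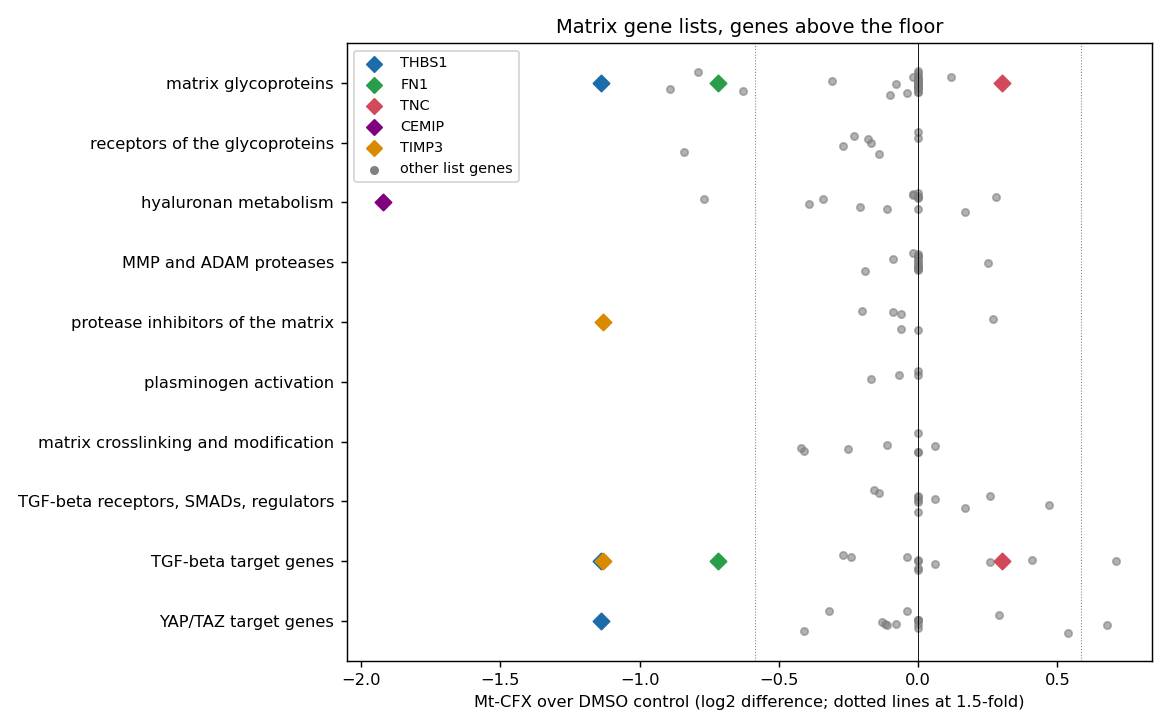
Log2 difference of Mt-CFX over DMSO control (horizontal axis) for every list gene above the floor, 1 row per list; diamonds are the 5 matrix genes, grey points are the other list genes with a small vertical scatter, dotted lines mark 1.5-fold, and a gene may stand in several lists. CEMIP, THBS1 and TIMP3 lie left of all grey points, and most grey points lie near 0.

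The other matrix glycoproteins numbered 26 above the floor, with a median of 0 in all comparisons. With Mt-CFX 3 of them were at least 1.5-fold lower, which is 11.5% against 1.25% of all genes. That much higher were 0 of them, against 1.45%. CCN3, a matricellular protein of the CCN family, stood at 6.63 in the control, 6.57 with CFX and 5.74 with Mt-CFX, a log2 difference of −0.89 with Mt-CFX. LTBP1, which stores latent TGF-beta in the matrix on fibronectin and fibrillin, stood at 7.71, 7.39 and 6.92, and so was below the control with both compounds, at −0.32 and −0.79. EFEMP1, a fibulin, stood at 6.28, 6.14 and 5.65, at −0.63 with Mt-CFX. FBN1, the gene of fibrillin 1, was at 7.72, 7.65 and 7.41. CCN2, a matricellular gene often induced together with THBS1, was at 10.12, 10.13 and 10.08 at the probe set used, and at 4.42, 4.62 and 4.62 at its other probe set, a log2 difference of 0.20 with both compounds. Of the other thrombospondin genes THBS2, THBS3 and THBS4 lay below the floor, and COMP was at 4.25 on every array.

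Of 22 listed receptors of these glycoproteins, 9 had a named probe set and 8 lay above the floor. These were SDC1, SDC2, SDC3, SDC4, CD47, EGFR, LRP1 and ANXA2. No integrin was among them, so they do not stand for the receptors as a class. Mt-CFX had a lower value in 6 of the 8, an equal value in 2 and a higher value in 0, against 23.2%, 52.9% and 23.9% of all genes. After centring each array on its median, 6 were lower and 2 higher, against 20.8% and 79.2% of all genes. The median of the 8 was −0.174 log2, and −0.149 after centring. SDC2, a syndecan that carries heparan sulphate and binds fibronectin, stood at 7.41 in the control, 7.36 with CFX and 6.57 with Mt-CFX. It was the one of the 8 at least 1.5-fold lower with Mt-CFX, which is 12.5% against 1.25% of all genes. SDC1 stood at 7.08, 7.00 and 6.81, SDC3 at 5.74, 5.66 and 5.56, and SDC4, a co-receptor in fibronectin adhesion, at 8.68, 8.66 and 8.68. CD47, a receptor of thrombospondin 1, was at 7.85, 7.79 and 7.62, a log2 difference of −0.23 with Mt-CFX. CD36, another thrombospondin receptor, was below the floor at 1.54 on every array. With CFX the median of the 8 was −0.035.

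In the hyaluronan list, with 14 genes above the floor beside CEMIP, HAS2 differed by the widest margin. HAS2, a hyaluronan synthase, stood at 6.68 in the control, 6.68 with CFX and 5.92 with Mt-CFX, a log2 difference of −0.77 with Mt-CFX and −0.01 with CFX. A gene of hyaluronan synthesis and one of its breakdown were thus both lower with Mt-CFX. The synthase gene HAS3 was at 4.68, 4.74 and 4.68, equal between control and Mt-CFX. CEMIP2, a relative of CEMIP at the cell surface, was at 5.85, 5.85 and 5.64, a difference of −0.21 against −1.92 for CEMIP. HYAL2, a hyaluronidase, was at 5.33, 5.33 and 4.94. The hyaluronan receptor CD44 was at 7.65, 7.65 and 7.31, and it is also a marker of this cell line. UGDH, which makes a sugar precursor of hyaluronan, was higher, at 7.95, 8.01 and 8.12, and so was HABP4, at 5.10, 5.10 and 5.37. Against the control, Mt-CFX had a lower value in 7 of the 14, a higher value in 2 and an equal one in 5, where all genes had 23.2%, 23.9% and 52.9%. The median was −0.009, and centring turned it to 0.015, with 5 lower and 9 higher. Over all genes centring gave a median of 0.024, with 20.8% lower and 79.2% higher, against 35.7% and 64.3% of the list.

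Of the TIMP family, which TIMP3 belongs to, all 4 genes were measured and no pair followed the same course over the arrays. TIMP1 was at 7.21 on all 3 arrays. TIMP2 was at 7.44, 7.44 and 7.24, a log2 difference of −0.20 with Mt-CFX. TIMP4 was at 6.78 in the control, 6.50 with CFX and 7.05 with Mt-CFX, so it was on opposite sides of the control with the compounds, as TNC was. RECK, a membrane inhibitor of MMPs, was at 5.76, 5.76 and 5.69. The 6 genes of the inhibitor list above the floor beside TIMP3 had a median of −0.061 with Mt-CFX. Of these, 0 differed by 1.5-fold, against 1.25% of all genes lower and 1.45% higher by that size. By any amount 4 of the 6 were lower, 1 was higher and 1 equal, against 23.2%, 23.9% and 52.9% of all genes.

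Of the protease families that TIMP3 inhibits, 16 MMP and ADAM genes were above the floor, and ADAMTS genes were not analysed here. With Mt-CFX 0 of the 16 differed from the control by 1.5-fold, against 1.25% of all genes lower and 1.45% higher by that size. Exactly equal to the control were 11 of them, against 52.9% of all genes. MMP14, the membrane-bound collagenase, was at 7.19, 7.17 and 7.19. ADAM17, which sheds TNF and growth factor precursors and is a target of TIMP3, was at 7.63, 7.63 and 7.88, and ADAM19 was at 6.53, 6.49 and 6.35. The collagenase MMP1 was below the floor at 2.83 on every array. In the plasminogen list 4 genes were above the floor and 0 of them differed by 1.5-fold, with ANXA2 at 7.38, 7.48 and 7.22 and S100A10 at 7.32, 7.34 and 7.25; these encode partners in a plasminogen-binding complex.

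Enzymes that crosslink or modify the matrix had 8 genes above the floor and 0 with a 1.5-fold difference. With Mt-CFX over control, 1.25% of all genes were lower and 1.45% higher by that size. By any amount 4 of the 8 were lower, 1 was higher and 3 equal, against 23.2%, 23.9% and 52.9% of all genes. LOXL2, a lysyl oxidase, was at 7.93 in the control, 7.93 with CFX and 7.51 with Mt-CFX, a log2 difference of −0.42. LOXL4 was at 4.13, 3.82 and 3.72, so that both compounds left it below the floor and the sizes are uncertain. LOX was at 6.21 on all 3 arrays.

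Genes of the TGF-beta pathway, and its targets beside the 5, went both ways. Of the pathway list 11 genes were above the floor, which were the receptor genes ENG and ACVRL1, SMAD genes and regulators of the SMADs, with no ligand among them. Mt-CFX had 4 higher, 3 lower and 4 tied values against the control, with a median of 0. Of all genes 23.9% were higher, 23.2% lower and 52.9% tied. After centring, 9 were higher and 2 lower, which is 81.8% higher against 79.2% of all genes. SMURF2, a ubiquitin ligase that restrains the pathway, was at 9.84 in the control, 10.10 with CFX and 10.31 with Mt-CFX, and SKIL, a repressor induced by TGF-beta, was at 4.97, 5.05 and 5.23. The list of TGF-beta targets, which shares SKIL, SMAD7 and TGIF1 with the pathway list, had 11 genes beside the 5. Of these, 4 were higher with Mt-CFX, 3 lower and 4 tied. After centring 8 were higher and 3 lower, or 72.7% higher against 79.2% of all genes. JUNB, an AP-1 gene that also belongs to the immediate early response, was at 5.77, 5.67 and 6.48. It was the one of these targets at least 1.5-fold higher with Mt-CFX, which is 9.09% against 1.45% of all genes. Among the 15 targets of YAP and TAZ, the co-activators that respond to adhesion and cell shape, the median with Mt-CFX was 0. Mt-CFX had 7 lower, 3 higher and 5 tied values. Lower were thus 46.7% against 23.2% of all genes, and higher 20% against 23.9%. After centring 7 were lower and 8 higher, or 46.7% lower against 20.8% of all genes. DLC1 was the one of the 15 at least 1.5-fold higher with Mt-CFX, at 5.40, 5.58 and 6.08. That is 6.67% against 1.45% of all genes.

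For each of the 5 genes the closest 3 among the other protein-coding genes were found by the distance between their pairs of log2 differences from the control, over the 3 arrays. THBS1 was nearest to FEN1, a flap endonuclease of DNA replication, at a distance of 0.00295 log2, and then to ADGRF5 and UHRF1. FN1 was nearest to LRP5, a Wnt co-receptor, at 0.0376, and then to LFNG and LPAR1. TIMP3 was nearest to FASN, the fatty acid synthase, at 0.0373, then to TRIB2 and again to FEN1. TNC was nearest to TIMP4, at 0.0721, and then to SMOX and C2orf68. CEMIP stood more alone: its nearest gene, the adhesion receptor gene ADGRF1, lay at 0.233, and the next, LPCAT1 and ENPP1, at 0.573 and 0.593. ADGRF1 differed from CEMIP mainly with CFX, where it was at −0.08 against −0.29. With 3 arrays many genes lie close to one another by these differences, and the likeness says nothing of shared function or control.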

How the data were processed

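Per the labels' protocols, RNA was isolated with Trizol and turned into biotin-labelled cDNA for whole-transcript arrays, 1 per group. The deposited values are log2 expression values per probe set, which the authors made, per the submitters' processing notes, by RMA with the Affymetrix Expression Console; versions, annotation release and genome build are not given in the sources used here. RMA gives all arrays nearly one distribution, so a change in total RNA is not visible, and 49.5% of 53617 probe sets had one value on all 3 arrays.

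Names of probe sets came from the platform annotation (16098 with 1 symbol; 37519 unnamed, not used here), and all gene IDs matched RefSeq's table. A gene with several probe sets was represented by the one with the highest mean. Genes had to reach 3.89 log2 on 1 array. Differences of log2 values were taken for 3 comparisons and counted at 2-fold and 1.5-fold, with counting tested on simulated data. No test was possible with 1 array per group, and the number of arrays limits the precision. The genes, lists and naming rule (the 5 genes; list genes at 1.5-fold or the 2 widest of a list; 21 preset genes, of which 10 were not analysed here and CD36 and MMP1 lay below the floor; the 3 nearest genes) were chosen with earlier results of these data known; further list genes named beside these were picked after their values were seen. Alternatives were other floors, other probe set rules, median centring, a lowess curve (span 0.3), 1.5-fold and genes of every type. Python 3.11.15, numpy 2.4.6, pandas 2.3.3, statsmodels 0.14.6 and matplotlib 3.10.9 were used.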

Additional observations from a re-analysis of the deposited data

Results flagged for a closer look

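Of the genes named above, 5 were on opposite sides of the control with the compounds, by at least 0.1 log2 each way: their value with CFX was below the control and their value with Mt-CFX above it. These differences were not tested, since each compound had 1 array. TNC was at −0.35 with CFX and 0.30 with Mt-CFX, a gap of 0.65 log2 between the compounds. TIMP4, a relative of TIMP3, was at −0.28 and 0.27, a gap of 0.55. JUNB was at −0.10 and 0.71, a gap of 0.82. SMOX, an oxidase of spermine, was at −0.26 and 0.28, a gap of 0.54, and C2orf68 at −0.24 and 0.39, a gap of 0.62. SMOX and C2orf68 were named as genes most like TNC, so their direction follows from that choice. TIMP4 was also among the genes most like TNC, but it was a preset gene too, named whatever its values. The preset genes were chosen with earlier results of these data known.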

How the results depend on the processing

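Of 36 values of the 5 genes under alternative settings, the 30 from another scaling stayed within 0.1 log2 of the reported value, and 0 changed sign. The other 6 moved further, and these were all the values from another choice of probe set, which could act on TIMP3 only, since the other genes have 1 probe set each: with the mean of its probe sets the log2 difference was −0.14 for CFX over control, −0.70 for Mt-CFX over control and −0.56 for Mt-CFX over CFX, and at the dimmer probe set 0, −0.27 and −0.27. TIMP3 is thus 2-fold lower with Mt-CFX only at the brighter probe set. Over all genes, those 2-fold higher with CFX numbered 2, but 0 if the floor was applied to the mean over arrays or set at the 75th percentile, 6 with genes of every type and 4 at 1.5-fold; those 2-fold lower numbered 0, but 1 with no floor, 1 with genes of every type and 9 at 1.5-fold. At 1.5-fold, 129 genes were higher and 111 lower with Mt-CFX over control, and 100 and 91 with Mt-CFX over CFX, against 27, 23, 23 and 11 at 2-fold. Counts of list genes at 1.5-fold were the same under all alternatives run for them, and 175 of 180 list medians stayed within 0.1 log2. Small medians, and counts of genes higher or lower by any amount, depend on ties: centring each array turned exact ties into small differences, all on the higher side. No paired analysis was possible because each group had 1 array. Depth has no counterpart here, and values near the floor limit what can be said of CEMIP with Mt-CFX and of the dimmer TIMP3 probe set.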

Other observations

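Some list genes that lay below the floor, and so entered no count, still differed between arrays, at signals where the size is uncertain. SMAD6, an inhibitory SMAD, was at 3.81 in the control, 3.81 with CFX and 3.23 with Mt-CFX. THBS3, a relative of THBS1, was at 3.43, 3.06 and 3.48, and the collagenase gene MMP13 at 2.59, 2.74 and 2.39.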
